A study of Mus musculus with 32 samples.

Results

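The knockdown of SRSF2 in the cytoplasmic fraction of P19 cells was compared with the GFP control of the same fraction. It comprised 2 libraries (SRSF2 A and B), set against 2 control libraries (GFP A and B), out of 32 libraries in the whole series. Members were chosen by their labels, as the cytoplasmic libraries whose knockdown target was SRSF2 or GFP. P19 cells come from a mouse embryonal carcinoma and keep many properties of pluripotent cells in culture. In the tested libraries the cells had received for 36 h an esiRNA against SRSF2, that is, a mixture of siRNAs made by enzymatic digestion of a long double-stranded RNA. The control cells had received an esiRNA against GFP, a jellyfish protein that these cells do not make. Both groups therefore shared the line, the transfection, the separation of the cytoplasm and the selection of poly(A)+ RNA. The series' design text calls A and B biological replicates, and it gives no more on how the cultures were kept apart. The p-values of gene levels therefore measure spread between libraries. For gene levels in the cytoplasm that spread was pooled over all cytoplasmic libraries, the other knockdowns included, and not over the SRSF2 and GFP libraries alone. For exon usage the spread was pooled over the parts of each gene, in the SRSF2 and GFP cytoplasmic libraries alone. Parts of a gene come from the same libraries and are not independent replicates, so small p-values there overstate the replication. The other 28 libraries were the same pair of groups in the whole cell and the knockdowns of SRSF1, SRSF3, SRSF4, SRSF5, SRSF6 and SRSF7 in both fractions.

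SRSF2 (SC35) is a member of the SR proteins, RNA-binding proteins with a domain rich in arginine and serine that bind exons of pre-mRNA and help the spliceosome to choose splice sites. It regulates constitutive and alternative splicing, it takes part in transcription elongation, and it limits its own level by splicing its transcript into forms that are degraded. Unlike several other members it stays largely in the nucleus, and its RNA-binding domain is known from work on the human protein to accept both the CCNG and the GGNG form of a short motif. The study asked whether mRNAs depend on particular SR proteins to reach the cytoplasm, and the cytoplasmic libraries give the mRNA that had left the nucleus, or at least had left with this fraction.

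The values were estimated reads per gene that the authors scaled to a common depth. Converted back to whole reads, the knockdown libraries held 27713794 (A) and 33525250 (B) reads and the control libraries 28637278 (A) and 36081393 (B), within a range of 27713794 to 48585642 over all 16 cytoplasmic libraries. The Pearson correlation of log2 values over 17519 genes was 0.971 between SRSF2 A and B and 0.985 between GFP A and B. It was 0.979 between SRSF2 A and GFP A and 0.989 between SRSF2 B and GFP B. SRSF2 A thus lay further from its own partner than from the control of the same letter.

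SRSF2 A also stood apart in what it lacked. A set of 47 genes was at least 4 times higher in A than in B in each of the other 7 cytoplasmic groups, and it was led by *Scgb2b27*, *Cela2a*, *Spt1*, *Alb* and *Myh4*, genes of secretory glands, pancreas, liver and muscle. These genes together made up 1.48 and 1.13 RPM (reads relative to library depth, in the usual RPM scale) in SRSF2 A and B, against 86.2 in GFP A and 1.05 in GFP B. The other 6 A libraries held 72.7 to 93.8 RPM of them and the other 6 B libraries 0.77 to 1.34. Of the 47 genes 34 were at 0 in SRSF2 A, 33 in SRSF2 B and 35 in GFP B. The rule that chose them required high values in A relative to B in the other 7 groups, GFP included. It thus fixed in part the values of those groups, but used neither SRSF2 library. All 47 were set aside before scaling and testing, and their part in any other difference of SRSF2 A was not tested. Weaker members of the same tissues remained below that limit. The 11 tested genes of the list of exocrine pancreas had a median log2 change of -0.97 and the 7 of the liver list -0.69, against -0.02 over all genes tested, with *Pnliprp1*, a pancreatic lipase relative, the only member of either list that passed (1.29 and 1.09 scaled reads in SRSF2 A and B, against 8.12 and 7.74 in GFP A and B). It was as high in GFP B as in GFP A, unlike the genes set aside, and it did not pass with a pseudocount of 5 (log2 fold change -1.06, limma adjusted p = 0.0723) or with edgeR (adjusted p = 0.0869).

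**Figure D1:**
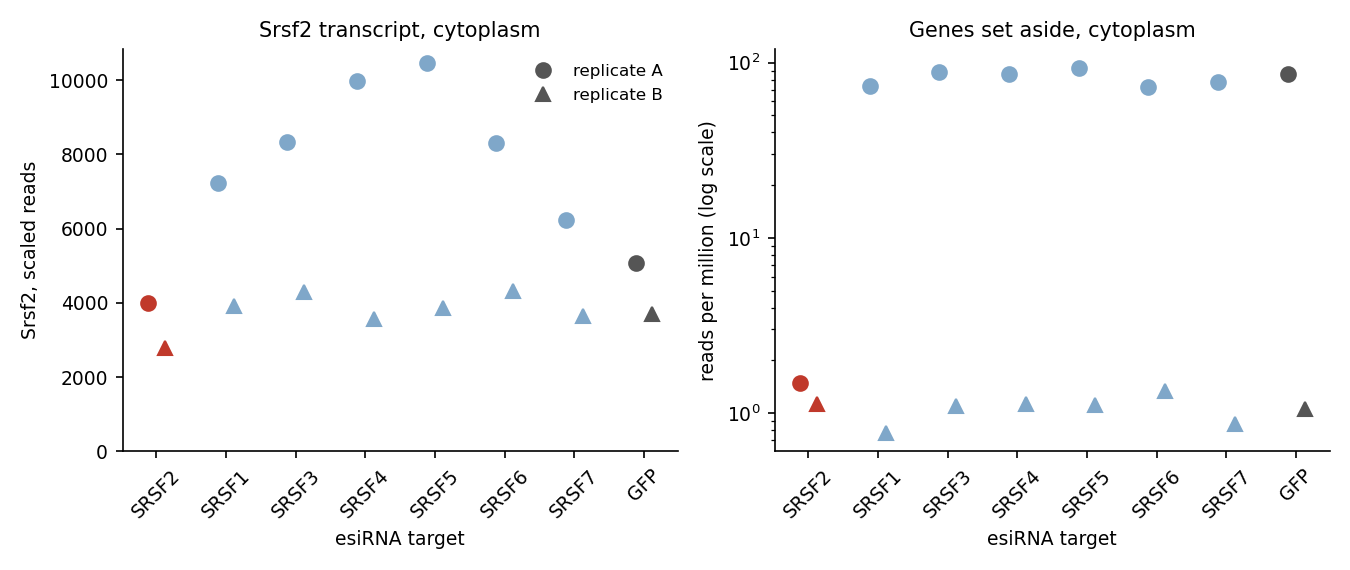
The targeted transcript and the genes set aside in all 16 cytoplasmic libraries. The left panel gives *Srsf2* in scaled reads (linear axis from 0) and the right panel the summed RPM of the 47 genes set aside (log axis), by esiRNA target, with red for the SRSF2 knockdown, blue for the other knockdowns, gray for GFP, circles for replicate A and triangles for replicate B. *Srsf2* lay at 3983 and 2791 in the knockdown and at 5079 and 3695 in GFP, and SRSF2 A is the only A library without the genes set aside.

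The targeted gene comes first. *Srsf2* (ENSMUSG00000034120, chromosome 11) was at 3983 scaled reads in SRSF2 A and 2791 in SRSF2 B, against 5079 in GFP A and 3695 in GFP B. Each knockdown library lay below the control of its own letter, but SRSF2 A lay above GFP B, so the groups overlapped. The knockdown held 77.2% of the control mean (3387 ± 843 against 4387 ± 979, SD, n = 2 each), and the difference did not pass in the cytoplasm (log2 fold change -0.37, SE 0.20, limma adjusted p = 0.349), nor under any of the 13 alternatives. In the whole cell the same knockdown left 57.9% of the transcript (4510 and 4242 scaled reads, against 7907 and 7220 in GFP), and there the fall passed (log2 fold change -0.78, limma adjusted p = 0.00610). Set against the mean of the 6 other knockdowns in the cytoplasm, a comparison added after the data had been seen, *Srsf2* was lower by 0.77 on the log2 scale (SE 0.16, limma adjusted p = 0.0125). In those knockdowns it stood at 6238 to 10452 in the A libraries and at 3573 to 4314 in the B libraries. No exon bin of *Srsf2* passed for a change in its usage. RNA remaining in each cell and the share of cells that took up the esiRNA cannot be told apart in such bulk libraries, here or in the results that follow.

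Markers of the cell line and of the fraction were measured next. *Pou5f1*, the pluripotency factor Oct4, was at 89381 and 87013 scaled reads in the SRSF2 knockdown and at 87326 and 92220 in GFP. *Sox2* (log2 fold change -0.34), *Nanog* (-0.46), *Dppa4* (-0.42) and *Tdgf1* (-0.53) were lower in both pairs but did not pass. *Sall4* (0.22) and *Lin28a* (0.07) did not pass either, and *Utf1* (0.68) passed as higher. *Malat1*, a nuclear long noncoding RNA, was at 155 and 53.6 scaled reads in the knockdown and at 281 and 89.0 in GFP in the cytoplasm, while the whole-cell libraries of these groups held 11607 to 16814 of it. *Neat1* was at 78.7 and 90.7 scaled reads in the knockdown and at 88.2 and 72.5 in GFP in the cytoplasm, beside 571 to 1354 in the whole-cell libraries. *Malat1* had a log2 fold change of -0.78, while *Neat1* (0.08), *Firre* (0.25), *Miat* (0.58) and *Meg3* (0.17) lay above 0. None of the 9 nuclear RNAs tested passed, and 6 of them lay above 0, with a median of 0.17.

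Of 17519 genes tested, 320 passed an adjusted p of 0.05 (limma, replicate letter as block), which is 1.83% of all genes: 162 were higher (0.925%) and 158 lower (0.902%) in the SRSF2 knockdown than in GFP. The higher genes changed less, with a median log2 change of 0.68 and 27 genes over 2-fold, against -0.91 and 64 genes for the lower ones. Protein-coding genes made up 151 of the higher and 150 of the lower genes. All 320 moved in the same direction in pair A and in pair B, and in 302 the groups did not overlap, as was the case for 33.4% of all genes tested. With unadjusted p under 0.05 there were 1570 higher and 1648 lower genes. The count rested on the block and on single libraries. Without the replicate block no gene passed (665 higher and 620 lower at an unadjusted p under 0.05). Without SRSF2 A, 3 higher and 7 lower genes passed, without GFP A 1 and 0, without GFP B 22 and 17, and without SRSF2 B 416 and 883. All 320 genes kept their direction in each of these 4 fits, and 288 of them still passed without SRSF2 B.

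*Prkdc* and *Rad50* were among the 12 leading lower genes. *Prkdc*, the catalytic subunit of the DNA-dependent protein kinase of end joining, was at 150 and 109 scaled reads in SRSF2 A and B, against 451 and 307 in GFP A and B. *Rad50*, the ATPase of the complex that holds broken ends, was at 346 and 234 scaled reads in the knockdown, against 914 and 622 in GFP. Both knockdown libraries lay well below both control libraries for each gene. *Prkdc* was lower by 1.53 (SE 0.17, limma adjusted p = 0.00182) and *Rad50* by 1.40 (SE 0.17, adjusted p = 0.00190) on the log2 scale, and both kept an adjusted p below 0.05 without SRSF2 A (0.0228 and 0.0248) but not without GFP A.

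Among the 12 leading lower genes *Grip2* fell furthest, a scaffold protein that binds AMPA receptors at synapses. It was at 32.3 and 61.2 scaled reads in SRSF2 A and B, against 167 and 183 in GFP A and B, so that the knockdown held 26.7% of the control mean with no overlap (log2 fold change -1.94, SE 0.25, limma adjusted p = 0.00190). *Ppm1m*, a protein phosphatase of the PP2C family, was at 522 and 795 in the knockdown, against 1481 and 1603 in GFP (log2 fold change -1.25, adjusted p = 0.00182). *Mfap2*, a component of microfibrils, was at 129 and 185 scaled reads in the knockdown, against 372 and 406 in GFP, and *Vwa2*, a matrix protein with von Willebrand A domains, at 42.6 and 95.1, against 145 and 176. In these 4 genes both pairs moved down, with no knockdown library reaching a control library.

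Enzymes were also among the 12 named lower genes. *Mlycd*, which degrades malonyl-CoA in the control of fatty acid oxidation, was at 187 and 459 scaled reads in the SRSF2 knockdown and at 594 and 840 in GFP (log2 fold change -1.26, limma adjusted p = 0.0218). *Pla1a*, a secreted phospholipase for phosphatidylserine, was at 19.4 and 66.7 in the knockdown and at 78.9 and 141 in GFP (log2 fold change -1.52). The rest were *2810002D19Rik*, a transcript without a coding sequence (log2 fold change -1.41), *Rmdn1*, a regulator of microtubule dynamics (-1.29), *Trim67*, a ubiquitin ligase of neurons (-1.26), and *Eif2s3y*. *Trim67* was the single gene of the 12 whose groups overlapped (28.4 and 145 scaled reads in the knockdown, against 114 and 217 in GFP).

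*Eif2s3y*, the Y-linked gene for the gamma subunit of translation initiation factor eIF2, differed between the fractions in its values. In the cytoplasm it was at 54.2 and 20.8 scaled reads in SRSF2 A and B, against 137 and 73.5 in GFP A and B, with a log2 fold change of -1.54 (SE 0.32, limma adjusted p = 0.0274). In the whole cell it was at 1026 and 1372 scaled reads in the knockdown, against 1400 and 1561 in GFP, with a log2 fold change of -0.31 (adjusted p = 0.0876). The difference between the fractions was -1.25 (SE 0.34) and did not pass over all genes (adjusted p = 1.00). *Eif2s3x* is nearly identical in sequence, and reads that match both copies may have been divided between them.

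Among the 12 leading higher genes *Cd79a* rose furthest, which encodes a signalling chain of the B cell receptor. It was at 190 and 75.4 scaled reads in SRSF2 A and B, against 16.2 and 13.5 in GFP A and B, 8.90-fold higher in the mean and with no overlap (log2 fold change 2.94, SE 0.41, limma adjusted p = 0.00366). The whole cell showed 131 and 72.5 scaled reads in the knockdown, against 14.6 and 6.67 in GFP (log2 fold change 3.18). *Cd79a* was the only gene that passed in the list of immune cell markers, of which 9 were tested, 3 of them above 0, with a median log2 change of -0.23. Its partner chain *Cd79b* was at 6.45 and 24.0 in the knockdown and at 15.1 and 24.2 in GFP, and *Ptprc* (CD45) was at 0 and 0, against 1.16 and 0. In reads recovered from the exon bins, the first exon of *Cd79a* held 0 and 1 reads in SRSF2 A and B and 0 and 0 in GFP A and B, while all its bins together held 172 and 82 reads, against 17 and 18. Few reads in a first exon were not rare, since 18.1% of 12079 genes with at least 100 reads over the 4 libraries had at most 3 in each library. *Cd68*, a lysosomal glycoprotein that is abundant in macrophages, was also among the 12 (191 and 274 scaled reads in the knockdown, against 73.1 and 139 in GFP, log2 fold change 1.18, adjusted p = 0.0170).

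Transcripts without a known protein made up 3 of the 12 named higher genes. *Nespas*, an antisense transcript of the imprinted *Gnas* region, was at 129 and 102 scaled reads in SRSF2 A and B, against 42.9 and 26.1 in GFP A and B (log2 fold change 1.75, SE 0.28, limma adjusted p = 0.00822). *Gm16008*, also annotated as antisense, was at 178 and 50.3 in the knockdown and at 37.1 and 25.1 in GFP (log2 fold change 1.61), and the long intergenic RNA *1700086P04Rik* at 270 and 279, against 78.9 and 120 (log2 fold change 1.49). Knockdown and control did not overlap in any of these 3. Most recovered reads of *Gm16008* lay in its bin E006, with 197 and 69 in SRSF2 A and B and 43 and 39 in GFP A and B. All its bins held 229 and 86, against 59 and 51. The sources used here do not say whether reads were counted by strand, so reads of the antisense genes and of the genes opposite them cannot be told apart.

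The other higher genes had roles in mitochondria, ribosome assembly, membranes and muscle. *Dhx37*, a helicase that acts in the assembly of the small ribosomal subunit, was at 3595 and 3161 scaled reads in SRSF2 A and B, against 1391 and 1621 in GFP A and B (log2 fold change 1.17, SE 0.17, limma adjusted p = 0.00453). *Sfxn4*, a sideroflexin of the inner mitochondrial membrane, was at 258 and 293 in the knockdown, against 95.1 and 116 in GFP (log2 fold change 1.39, adjusted p = 0.00651). *Mtx3*, a metaxin of the outer mitochondrial membrane, was at 325 and 190, against 117 and 107 (log2 fold change 1.15). In all 3 the knockdown lay above the control in every library. *Prr13* had the smallest p of the named higher genes, at 1545 and 1190 scaled reads in the knockdown and 618 and 570 in GFP (log2 fold change 1.20, SE 0.15, adjusted p = 0.00190). *Kcns1*, a modulatory subunit of voltage-gated potassium channels, was at 144 and 97.3, against 55.7 and 41.6 (log2 fold change 1.29). *Synpo2l*, an actin-binding protein of the muscle Z disc, was at 61.9 and 197 in the knockdown and 18.6 and 87.0 in GFP (log2 fold change 1.43), the 1 gene of these 12 whose groups overlapped, since SRSF2 A lay below GFP B. Most of its recovered reads lay near the 3′ end. Bin E003 held 38 and 147 in SRSF2 A and B and 12 and 72 in GFP A and B, of 51 and 184, against 16 and 93, in all its bins. Bins E006 to E009 at the 5′ end held 0 in each library, so a full-length transcript was not shown.

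*Hspa5* (BiP), the main chaperone of the endoplasmic reticulum, was at 6791 and 5244 scaled reads in SRSF2 A and B, against 4175 and 1929 in GFP A and B (log2 fold change 1.08, SE 0.18, limma adjusted p = 0.00973). *Calr*, a chaperone for glycoproteins, was at 25772 and 26868 in the knockdown and 18090 and 15092 in GFP (log2 fold change 0.68, adjusted p = 0.0157). These were the 2 that passed of 19 tested chaperones and folding factors of this compartment, whose median was 0.26 with 15 above 0. Over all genes tested the median was -0.02, 48.0% lay above 0 and 0.925% passed as higher. None of 22 genes of the integrated stress response passed (median 0.05). Against the mean of the 6 other knockdowns *Hspa5* did not pass (limma adjusted p = 0.0831), and neither did *Calr* (adjusted p = 0.195).

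**Figure D2:**
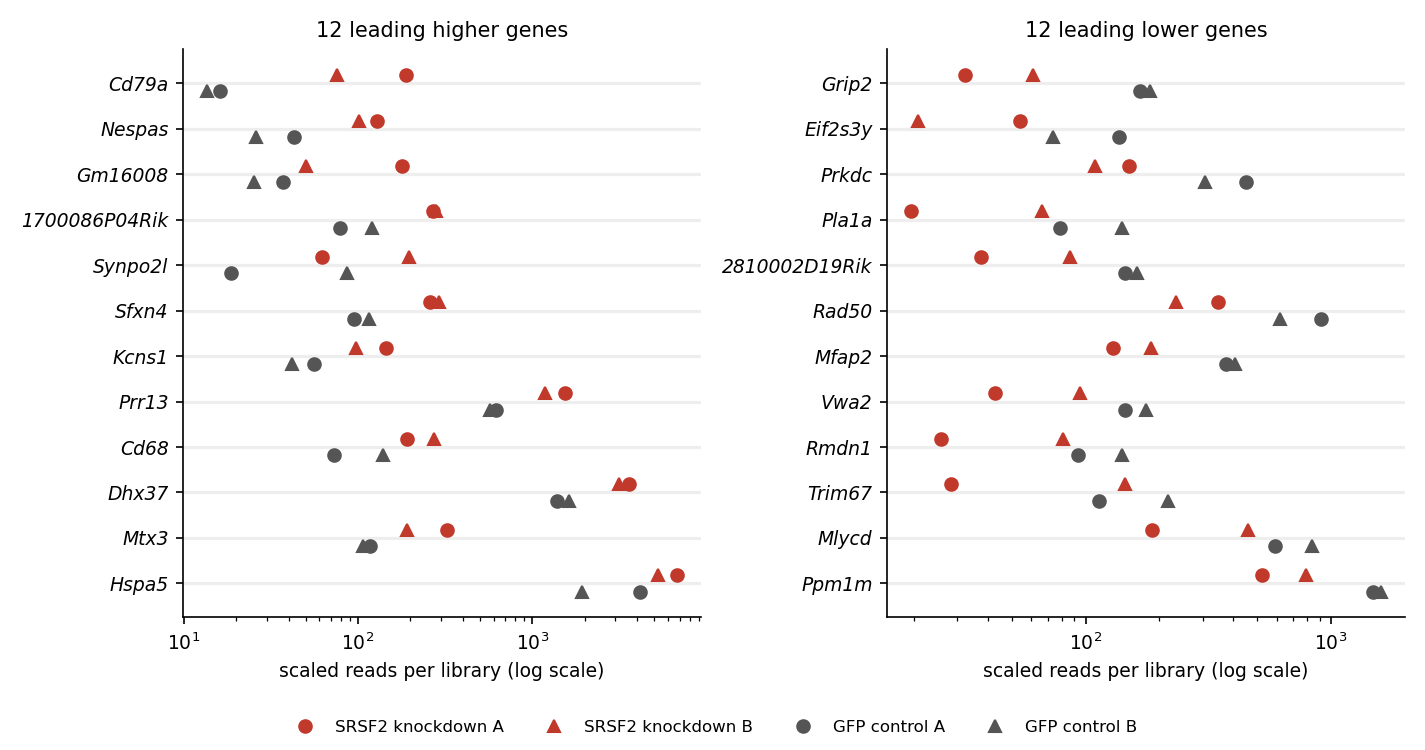
The 12 leading higher genes (left) and the 12 leading lower genes (right) in the 4 cytoplasmic libraries. The horizontal axes give scaled reads per library on a log scale, with red for the SRSF2 knockdown, gray for GFP, circles for replicate A and triangles for replicate B. *Cd79a* lay at 190 and 75.4 after knockdown, against 16.2 and 13.5 in GFP, and *Grip2* at 32.3 and 61.2, against 167 and 183.

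Among the 24 named genes, 3 higher and 4 lower still passed without SRSF2 A, 12 and 12 without SRSF2 B, 6 and 6 without GFP B, and none without GFP A, and all 24 kept their direction in each of these fits. Set against the mean of the 6 other knockdowns in place of GFP, 10 of the 12 higher and 11 of the 12 lower genes passed in the same direction, where 4.65% of all genes passed (2.04% higher and 2.61% lower). The exceptions were *Cd68* (limma adjusted p = 0.0539), *Hspa5* (0.0831) and *Mlycd* (0.0811). That comparison shares the SRSF2 libraries with the one against GFP. Its 815 passing genes fell to 11 without SRSF2 A and to 10 with no replicate block, and without SRSF2 B there were 1961. The other knockdowns lay on the same side of GFP in many of these genes. The 12 higher genes had a median log2 difference from GFP of 1.33 in the SRSF2 knockdown and of 0.24 to 0.60 in the other 6, where 8 to 11 of the 12 were above GFP in both pairs. The 12 lower genes had a median of -1.37 in the SRSF2 knockdown and of -0.42 to -0.05 in the others, where 6 to 9 of the 12 were below GFP in both pairs. All these differences share the GFP libraries.

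The SR proteins and their relatives were represented by 19 tested genes, of which 2 rose and none fell, where 0.925% of all genes passed as higher. Their median log2 change was 0.23, against -0.02 over all genes tested. *Srsf11*, an SR-related protein, was at 6070 and 2468 scaled reads in SRSF2 A and B, against 2364 and 1662 in GFP A and B (log2 fold change 0.97, SE 0.20, limma adjusted p = 0.0231). *Srrm2*, a large scaffold of nuclear speckles, was at 7843 and 3303 in the knockdown, against 3747 and 1823 in GFP, with SRSF2 B below GFP A (log2 fold change 0.97, SE 0.17, adjusted p = 0.0135). In each letter the knockdown was the higher library, yet the A libraries of both groups exceeded the B libraries. The other canonical members did not pass. *Srsf1* was at 4069 and 1114, against 2389 and 1387, and *Srsf7* at 4571 and 3592, against 3603 and 3604. Of 8 kinases that phosphorylate SR proteins *Clk3* passed, at 4549 and 3478 scaled reads in the knockdown and 2953 and 2500 in GFP (log2 fold change 0.56, adjusted p = 0.0351), where the list's median was -0.11.

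The core spliceosome list had 44 tested genes, of which 36 lay above 0, with a median of 0.20, where 48.0% of all genes tested lay above 0 with a median of -0.02. In it 3 genes rose and none fell, where 0.925% of all genes passed as higher. *Sf3b3*, a subunit of the SF3b complex of the U2 particle, was at 21433 and 14118 scaled reads in SRSF2 A and B, against 11964 and 8639 in GFP A and B (log2 fold change 0.78, SE 0.17, limma adjusted p = 0.0284). *Snrnp200*, the helicase that unwinds U4 from U6, was at 10361 and 8289 in the knockdown, against 6095 and 5717 in GFP (log2 fold change 0.66, adjusted p = 0.0231). *Dhx38*, the helicase of the second splicing step, was at 3971 and 2603, against 2284 and 1835 (log2 fold change 0.66, adjusted p = 0.0153). All 3 were higher in both knockdown libraries than in either control library. Of 24 hnRNP genes 1 fell and none rose, at a median of -0.08. That gene was *Hnrnph3*, at 873 and 470 scaled reads in the knockdown and 1477 and 895 in GFP (log2 fold change -0.84, adjusted p = 0.0465). None of 14 tested genes whose splicing is known to respond to SRSF2 passed in level, at a median of -0.07.

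Factors that carry mRNA out of the nucleus gave 2 higher genes of 26 tested, with none lower and a median of 0.05, where 0.925% of all genes passed as higher. *Ddx39b* (UAP56), the RNA helicase of the TREX export complex, was at 27594 and 22418 scaled reads in SRSF2 A and B, against 13692 and 13596 in GFP A and B (log2 fold change 0.87, SE 0.17, limma adjusted p = 0.0218). *Thoc3*, a subunit of the THO part of that complex, was at 7375 and 6050 in the knockdown, against 4178 and 4585 in GFP (log2 fold change 0.62, adjusted p = 0.0225). The knockdown libraries lay above the control libraries for both. The export receptor itself, *Nxf1*, was at 5472 and 4010, against 4455 and 3893 (log2 fold change 0.18, adjusted p = 0.403). Of 16 genes of nonsense-mediated decay and the exon junction complex *Rnps1*, a peripheral junction protein, was the 1 that rose, at 16634 and 10699 in the knockdown and 9007 and 7093 in GFP (log2 fold change 0.74, adjusted p = 0.0118). Of 7 snoRNA host genes *Snhg5* fell, at 406 and 604 in the knockdown and 1056 and 1171 in GFP (log2 fold change -1.16, adjusted p = 0.0311), and the median of these 7 was -0.11.

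Lists of cell state changed in few members. Of 23 pluripotency genes *Utf1*, a chromatin factor of pluripotent cells, rose (10788 and 8393 scaled reads in SRSF2 A and B, against 5605 and 6344 in GFP A and B, log2 fold change 0.68, limma adjusted p = 0.0478), at a list median of -0.02. This call held under 4 of 13 alternatives and was lost with DESeq2 size factors (adjusted p = 0.0599), edgeR (0.0678) and with the genes set aside kept (0.0591). Of 25 lineage genes *Id3*, an inhibitor of basic helix-loop-helix factors, fell (1685 and 2888, against 2802 and 3973, log2 fold change -0.59, adjusted p = 0.0488), at a median of -0.18, and its groups overlapped. Of 25 immediate early genes *Jund*, a subunit of the transcription factor AP-1, rose (2509 and 2915, against 1533 and 1844, log2 fold change 0.69, adjusted p = 0.0285). The median of that list was 0.40, with 22 of 25 above 0, against -0.02 and 48.0% over all genes tested.

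The remaining lists held isolated changes. Of 17 genes of the interferon response *Oasl2* fell (32.3 and 223 scaled reads in SRSF2 A and B, against 89.3 and 388 in GFP A and B, log2 fold change -1.11, limma adjusted p = 0.0445), with overlapping groups and a wider gap between the letters than between the groups. Of 82 nuclear genes of oxidative phosphorylation *Cox6b2*, a testis form of a cytochrome c oxidase subunit, fell (69.7 and 174, against 255 and 257, log2 fold change -1.20, adjusted p = 0.0328). Of 22 keratin and cytoskeletal genes that differ between the lettered cultures *Vim* rose (7201 and 12365, against 4559 and 8513, log2 fold change 0.60, adjusted p = 0.0172), and its groups overlapped too. None passed among 84 cytoplasmic ribosomal proteins (median -0.08), 40 genes of DNA replication and mitosis (0.05), 47 replication-dependent histones (0.21), 26 genes of the p53 response (0.06), 25 of glycolysis and hypoxia (0.11) and 23 of cholesterol synthesis (0.07). Most of the 13 tissue lists held no passing gene either, *Cd79a* and *Pnliprp1* being the exceptions. Set against the mean of the 6 other knockdowns, these passing members of the lists did not pass, besides *Hspa5* and *Calr*: *Srrm2* (log2 difference 0.32, limma adjusted p = 0.164), *Hnrnph3* (-0.29, 0.275), *Snhg5* (-0.51, 0.135), *Utf1* (0.43, 0.0615) and *Id3* (-0.39, 0.0558).

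Genes that passed in the cytoplasm mostly moved in the same direction in the whole cell. Of the 320 genes that passed in the cytoplasm 317 were measured in the whole cell, and 313 of them (98.7%) had the same direction there. The share with equal direction over all genes was not taken, so this value has no background beside it. Libraries of one letter may come from the same culture in both fractions, and the fractions may then not be independent. In the whole cell 1111 of 18537 genes passed (5.99%), 479 of them higher (2.58%) and 632 lower (3.41%), and 228 of the 317 (71.9%) were among them, all in the same direction. With no replicate block only 4 genes passed in the whole cell, 3 higher and 1 lower, so the shared calls rest on the block in both fractions. The genes higher in the cytoplasm had a median log2 change of 0.68 there and 0.47 in the whole cell, and the lower ones -0.91 and -0.72. Of the 24 named genes 10 higher and 11 lower ones passed in both fractions, and *Synpo2l*, *Kcns1* and *Eif2s3y* in the cytoplasm alone. The 4 genes with opposite directions, singled out after their values had been seen, were *Myo5a*, *Selenbp1*, *Gm16042* and *Gm15027*, all lower in the cytoplasm. None of these 4 passed in the whole cell. *Myo5a*, a myosin that carries vesicles along actin, was the most abundant of them, at 290 and 150 scaled reads in SRSF2 A and B, against 486 and 274 in GFP A and B (log2 fold change -0.80, against 0.02 for the whole-cell libraries).

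**Figure D3:**
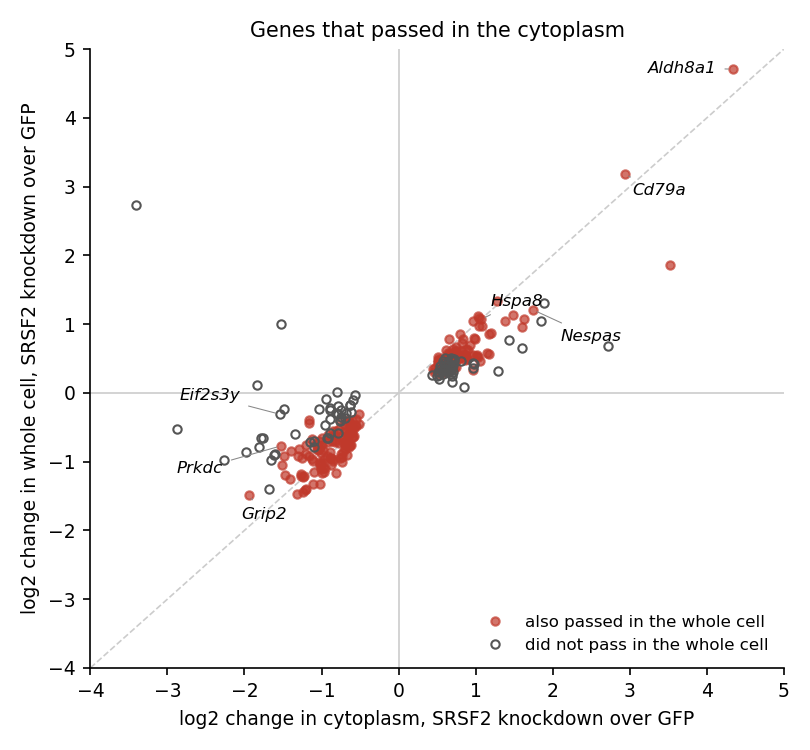
The 317 genes that passed in the cytoplasm and were measured in both fractions. The axes give the log2 change of the SRSF2 knockdown over GFP in the cytoplasm (horizontal) and the whole cell (vertical), filled red points passed in the whole cell too, open gray points did not, and the dashed line marks equal changes. Of these genes 313 lay in the quadrants of equal sign, with *Cd79a* at 2.94 and 3.18 and *Eif2s3y* at -1.54 and -0.31.

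The relative cytoplasmic level, the change in the cytoplasm minus the change in the whole cell, was the value closest to the question of export. The whole cell includes the cytoplasm, which can make this difference smaller, and export and decay in the cytoplasm cannot be told apart in it. None of 19165 genes passed this test, which is 0%, with the lowest limma adjusted p at 0.864. At an unadjusted p under 0.05 there were 190 higher and 548 lower genes, together 3.85% of those tested, a share below that cut itself. edgeR on recovered reads also passed no gene (602 at an unadjusted p under 0.05). These fits did not pair the libraries of both fractions, and the sources used here do not say whether libraries with the same letter came from the same culture. When each cytoplasmic library was paired with the whole-cell library of its group and letter, an alternative added after the data had been seen, again none passed (lowest limma adjusted p = 0.617, with 363 higher and 781 lower at an unadjusted p under 0.05), and the median SE was 0.21 in place of 0.27. Without the cytoplasmic library SRSF2 B 21 higher and 262 lower genes passed, and without the cytoplasmic library GFP B 1 and 0. The 3 genes with the smallest p for a higher relative level were *Plin4*, a coat protein of lipid droplets (log2 difference 1.93, SE 0.45), *Gsc2* (2.22, SE 0.56) and *Gm14326* (1.11, SE 0.30). *Plin4* stood at 9.03 and 5.46 scaled reads in SRSF2 A and B and at 1.16 and 1.93 in GFP A and B in the cytoplasm, beside 41.6 and 35.7, against 49.4 and 43.8, in the whole cell. For a lower relative level these were *Car9*, a carbonic anhydrase induced by hypoxia (-2.94, SE 0.61), *Gm15027* (-1.97, SE 0.43) and *Selenbp1* (-2.54, SE 0.57). *Car9* was listed at 0 in both cytoplasmic knockdown libraries and at 4.64 and 4.83 in GFP, while the whole cell held 44.9 and 56.4, against 38.2 and 37.1. These cytoplasmic levels are a few reads, and none of the 6 genes passed the correction. *Prkdc* had a relative level of -0.78 (SE 0.23) and *Rad50* of -0.57 (SE 0.19), values that the choice of these genes by their cytoplasmic change enters.

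Exon usage was tested within genes. The exon-bin table divides each gene into bins at every annotated exon boundary, and usage is the change of a bin relative to the other bins of its gene, so that a change of the whole gene cancels. Overlapping genes were joined into 1 locus, and there a change of a single member gene does not cancel. Of 143782 bins in 12055 genes 27 passed an adjusted p of 0.1 (limma diffSplice, replicate letter as block), which is 0.0188%: 18 had higher usage (0.0125%) and 9 lower usage (0.00626%) in the SRSF2 knockdown than in GFP. The 27 bins lay in 27 genes. At an unadjusted p under 0.05 there were 2365 higher and 2699 lower bins, together 5064 of the 143782 tested, a share below that cut itself. In all 27 the share of the gene's signal did not overlap between the groups, as in 36.3% of all bins tested, and bins that pass with 2 libraries against 2 can hardly overlap. With all 4 libraries and no block 16 higher and 4 lower bins passed. From there, still with no block, 15 and 2 passed without SRSF2 A, 886 and 2046 without SRSF2 B, 1 and 0 without GFP A, and none without GFP B (463 higher and 721 lower at an unadjusted p under 0.05).

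The bins with higher usage lay often in transcripts of which none is annotated as protein-coding, a group that includes those marked for nonsense-mediated decay. This held for 10 of the 18 higher bins and 2 of the 9 lower ones, against 2.52% of 136107 bins whose transcripts could be looked up. A place in the last exon of every transcript that holds the bin was found for 12 of the 18 higher and 7 of the 9 lower bins, against 15.6% of all bins tested. The usage of these bins chose them, and the shares are given as a description. Gene levels passed for *Ccdc28a* (log2 fold change 1.06) and *Wdr70* (0.84). The locus that joins *Gm20517*, *Usp49* and *Med20* held a gene that rose and a gene that fell, with log2 fold changes of 1.88 for *Gm20517* (limma adjusted p = 0.0387), 0.62 for *Usp49* (adjusted p = 0.143) and -0.82 for *Med20* (adjusted p = 0.0236).

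The sequences of 4 bins inside their genes are shown as examples chosen after their values had been seen, a pair that lost usage (*Snrpb* and *Wdr70*) and a pair that gained it (*Sars* and *Bag6*). The bins have mm10 coordinates and the sequences were read from the mm9 genome, at transcripts of the GENCODE vM1 annotation with the same exon lengths and spacing. Capitals mark matches of the RNA strand to CCNG or GGNG, with overlapping matches joined, in the first 3 sequences, and in the sequence of *Bag6* they mark the bin within its exon. Each sequence runs 5′ to 3′.
Snrpb: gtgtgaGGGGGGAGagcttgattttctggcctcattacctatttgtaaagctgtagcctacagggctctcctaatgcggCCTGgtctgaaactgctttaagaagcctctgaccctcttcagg
Wdr70: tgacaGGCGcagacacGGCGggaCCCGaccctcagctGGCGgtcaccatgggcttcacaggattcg
Sars: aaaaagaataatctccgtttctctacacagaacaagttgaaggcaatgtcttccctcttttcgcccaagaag
Bag6: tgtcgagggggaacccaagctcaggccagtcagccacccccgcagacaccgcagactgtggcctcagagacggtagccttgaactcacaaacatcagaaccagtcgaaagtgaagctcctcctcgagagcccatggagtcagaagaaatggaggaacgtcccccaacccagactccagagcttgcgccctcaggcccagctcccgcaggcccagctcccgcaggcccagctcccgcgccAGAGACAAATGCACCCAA

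The *Snrpb* sequence (chr2:130002365-130002486 in mm9, minus strand, 122 bases) held 5 matches and the *Wdr70* sequence (chr15:8048956-8049021 in mm9, minus strand, 66 bases) 4. Internal coding exons of these lengths held a median of 4 matches (1047 exons, 96.3% with a match) and 2 (1003 exons, 85.9%). The 72 bases of *Sars* (chr3:108230779-108230850 in mm9, minus strand) and the 18 bases of the *Bag6* bin (chr17:35277417-35277434 in mm9, plus strand) held none, where 87.0% of 1288 and 42.0% of 174 internal coding exons of these lengths had a match. A match is only a description of the letters.

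*Wdr70* encodes a WD-repeat protein, and its exon 2 (bin E017, chr15:8098956-8099021 in mm10, minus strand, 66 bases, inside the coding sequence) lost usage in the knockdown. It was at 25.6 and 63.2 scaled reads in SRSF2 A and B, against 103 and 124 in GFP A and B, which is 0.479% and 2.36% of the gene's signal, against 4.14% and 6.14% (log2 usage change -2.17, SE 0.39, limma diffSplice adjusted p = 0.0494). The neighbours moved with it in part. Exon 1 was at 3.34 and 4.79 scaled reads in the knockdown, against 13.1 and 14.1 in GFP, and exon 3 at 138 and 109, against 151 and 161, while exon 4 was at 170 and 107, against 88.6 and 69.8. The 5′ end of the transcript was thus lower and the rest higher in the knockdown, and the gene as a whole rose (log2 fold change 0.84, limma adjusted p = 0.0135). The usage of exons 1 and 3 did not pass (adjusted p = 1).

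**Figure D4:**
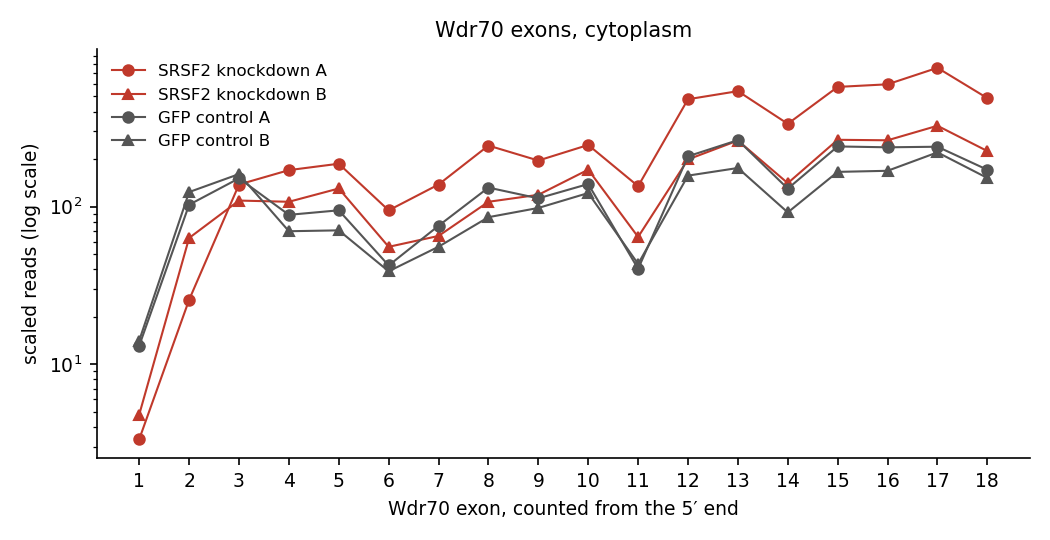
The 18 exons of *Wdr70* in the cytoplasm, counted from the 5′ end. The vertical axis gives scaled reads on a log scale, with red for the SRSF2 knockdown, gray for GFP, circles for replicate A and triangles for replicate B. At exon 2 the knockdown lay at 25.6 and 63.2, against 103 and 124 in GFP, and at exon 4 at 170 and 107, against 88.6 and 69.8.

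*Snrpb* encodes the Sm proteins B and B′ of the snRNP core. Its bin E009 (chr2:130176629-130176750 in mm10, minus strand) lies in 2 of its 4 transcripts, both without a coding sequence, between exons that were used far more. The bin was at 10.0 and 17.2 scaled reads in SRSF2 A and B, against 48.3 and 124 in GFP A and B, or 0.0415% and 0.0762% of the gene's signal, against 0.277% and 0.600%. It had the largest loss of usage that passed (log2 usage change -2.79, SE 0.48, limma diffSplice adjusted p = 0.0883). The bin upstream, E012, was at 4540 and 5622, against 4383 and 5376, and the level of the gene did not pass (log2 fold change 0.34, limma adjusted p = 0.194). Mammalian *Snrpb* is known to carry an alternative exon through which its protein limits its own level, and whether this bin is that exon was not tested.

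The other lower bins were mostly alternative last exons. *Ccdc28a* bin E009 (1609 bases) was at 17.8 and 16.3 scaled reads in SRSF2 A and B, against 54.4 and 46.8 in GFP A and B, while the neighbouring bin E010 was at 195 and 176, against 91.7 and 121 (log2 usage change -2.59, limma diffSplice adjusted p = 0.0140). The long last exon fell in both knockdown libraries although the rest of the gene rose. *Tcf25* bin E019 was at 83.5 and 187, against 326 and 354 (log2 usage change -1.54, adjusted p = 0.00933), with the bin beside it at 1963 and 1662, against 1350 and 1415. *Txn2*, the mitochondrial thioredoxin, lost usage of a last exon of 322 bases (0.0911% and 0.0889% of the signal in the knockdown, against 0.432% and 0.214% in GFP, log2 usage change -1.74). The rest were last exons of *Wwox*, an oxidoreductase with WW domains (-1.25), of *Med14*, a subunit of Mediator (-1.12), of *Ptbp3*, a splicing regulator of the PTB family (-1.03), and of the locus of *Gm20517*, *Usp49* and *Med20* (-1.02).

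Among the 10 named bins with higher usage *Atp5g3*, a gene for subunit c of ATP synthase, had the largest change. Its bin E002, a last exon of 452 bases in a transcript without a coding sequence, was at 244 and 161 scaled reads in SRSF2 A and B, against 27.2 and 21.2 in GFP A and B (3.06% and 1.29% of the gene's signal, against 0.237% and 0.160%, log2 usage change 3.32, limma diffSplice adjusted p = 0.00919). *Bola2*, a factor of iron-sulfur cluster transfer, showed the largest share. Its alternative last exon E008 was at 479 and 258, against 82.6 and 60.9, and made up 15.99% and 8.502% of the signal in the knockdown, against 2.87% and 1.99% in GFP (log2 usage change 2.49). *Dohh*, the hydroxylase that completes hypusine in eIF5A, had a last exon at 324 and 182, against 30.2 and 34.4 (2.55). The knockdown lay above the control in every library for these 3 bins.

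Factors of gene expression were also among these genes. *Sympk*, the symplekin scaffold of mRNA 3′ end formation, had the smallest p of all bins. Its bin E033, the last exon of a transcript marked as a target of nonsense-mediated decay, was at 65.7 and 60.3 scaled reads in SRSF2 A and B, against 16.1 and 14.1 in GFP A and B (log2 usage change 2.38, SE 0.27, limma diffSplice adjusted p = 7.96e-06). *Mknk1*, a kinase of the initiation factor eIF4E, had a last exon at 99.1 and 88.1, against 21.2 and 18.5 (2.45, adjusted p = 5.87e-05), and *Tcfl5*, a basic helix-loop-helix factor, one at 136 and 122, against 25.2 and 38.9 (2.53). These bins were a minor share of their genes in both groups, at most 6.45% in the knockdown. The rest were *Ttc23* (2.71), *Stc2*, a secreted glycoprotein (2.40), *Tmem234* (2.30) and *Bag6* (2.26).

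*Bag6*, a chaperone for tail-anchored membrane proteins, gained usage of 18 bases at the 3′ end of a 257-base coding exon (bin E027, chr17:35140472-35140489 in mm10, plus strand), at 246 and 112 scaled reads in SRSF2 A and B, against 24.2 and 36.2 in GFP A and B. Its share of the gene was 1.09% and 0.544% in the knockdown, against 0.143% and 0.179% (limma diffSplice adjusted p = 0.0494). Neighbouring bins were higher too, E026 at 360 and 242 scaled reads in the knockdown, against 101 and 164 in GFP, and E029 at 513 and 363, against 196 and 245, but their usage did not pass. *Sars*, the seryl-tRNA synthetase, lies outside the 10 named bins and was singled out after its values had been seen. It gained usage of an internal coding exon of 72 bases (bin E004, chr3:108427861-108427932 in mm10, minus strand), at 849 and 674 scaled reads in the knockdown, against 189 and 239 in GFP, or 1.14% and 0.828% of the signal, against 0.282% and 0.285% (log2 usage change 1.83, SE 0.31, adjusted p = 0.0386). Both lengths are multiples of 3 and lie inside the coding sequence. The gene levels of *Bag6* and *Sars* did not pass (log2 fold changes 0.24 and 0.07).

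**Figure D5:**
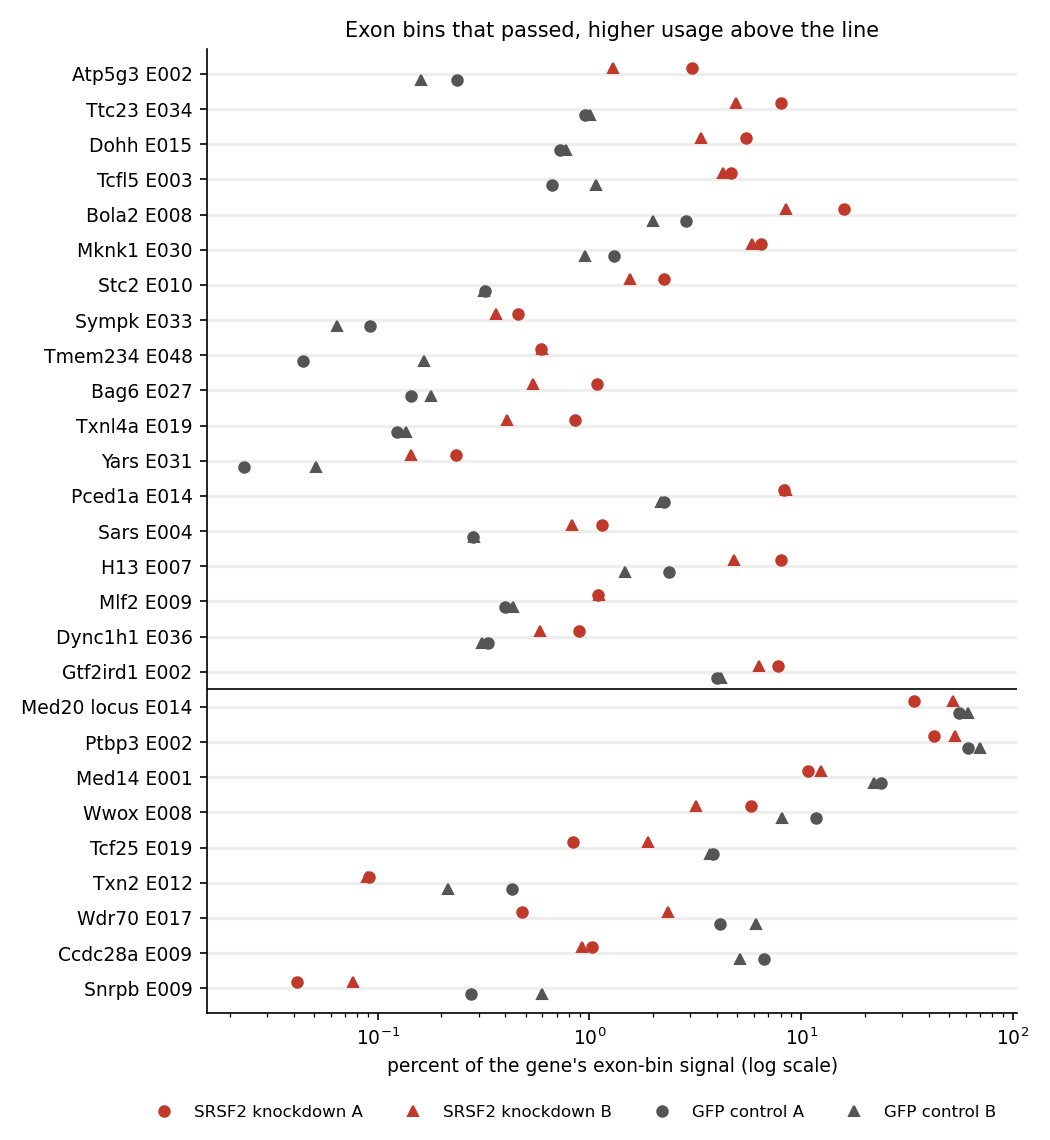
The 27 exon bins that passed, with higher usage above the line and lower usage below it. The horizontal axis gives each bin's percent of its gene's exon-bin signal per library on a log scale, with red for the SRSF2 knockdown, gray for GFP, circles for replicate A and triangles for replicate B. The groups do not overlap in any of these bins, nor in 36.3% of all bins tested. The values run from *Atp5g3* at 3.06% and 1.29% in the knockdown, against 0.237% and 0.160%, to *Snrpb* at 0.0415% and 0.0762%, against 0.277% and 0.600%.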

How the data were processed

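Poly(A)+ RNA of P19 cells was sequenced as single-end reads. The processing notes name CASAVA 1.8.2, cutadapt (version not given in the sources used here), Bowtie2 2.1.0, Cufflinks 2.1.1 and TopHat2 in versions 2.0.9 and 2.0.10. Both kinds of file hold a signal that the authors deposited: reads per gene (38201 genes), or per mm10 exon bin (354841 bins), scaled to a common depth per library. Division by the step between low values returned whole reads, within 0.1 for 97.9% to 98.7% of values up to 20 steps in the cytoplasmic gene table and within 0.01 for all exon bins, whose libraries held 41417374 (SRSF2 A), 50271642 (SRSF2 B), 42726617 (GFP A) and 54080490 (GFP B) reads. The exon-bin table's columns of the authors' own comparison (log2 fold, p and adjusted p from DEXSeq) were not used.

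Genes were tested after log2 transformation with a pseudocount of 1 in limma 3.58.1, using TMM factors, filterByExpr, a variance trend and the replicate letter as block, in all 16 cytoplasmic libraries. Fold changes on that scale understate the change of low genes. The relative cytoplasmic level was an interaction over all 32 libraries, whose 2 tables were scaled separately. diffSplice was run on the 4 libraries for bins whose mean reached 5, and it pools the spread over the bins of a gene. Thresholds were adjusted p of 0.05 (genes) and 0.1 (bins), Benjamini-Hochberg, two-sided. With 2 libraries against 2 an exact permutation test cannot go below p = 0.333, so none was used. Scaled reads printed for genes carry the TMM factors.

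The letter was used to pair the libraries: the A minus B differences of SRSF2 and GFP correlated at 0.742 in the cytoplasm (Spearman, 11793 genes, 0.449 to 0.827 over 28 pairs of groups). The lowest of these pairs included SRSF2. In the whole cell the same correlation was only 0.339 (12642 genes, 0.238 to 0.815 over 28 pairs, median 0.563), so the letters paired these groups less closely there. The pairing rests on these values, as the labels hold no more than a letter. The 47 genes set aside were chosen from the other 14 cytoplasmic libraries (A at least 4 times B plus 1 in all 7 groups, mean of at least 10 in A). *Eef1a1*, *mt-Atp8*, *mt-Atp6* and *mt-Co3* were left out, as they are abundant but listed at 0 in some libraries.

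Named genes were the 12 with the largest change in each direction that passed, averaged at least 100 scaled reads in the higher group and had the same sign in both pairs, with *Srsf2* and the passing members of 36 gene lists. Named bins were the 10 with the largest change in each direction. For the relative level, the 3 genes with the smallest p in each direction were named. Members, rules and lists were chosen with earlier results of these data known. The models for gene levels and exon bins were first run on simulated data with a fixed spread and no library that stood apart. With the block they found 90% of 2-fold gene changes and 60% of 2-fold bin changes. Such data do not speak to a library such as SRSF2 A. The unpaired model of the relative level was not run on them. Alternatives were other scaling, filter, pseudocount and block settings, edgeR 4.0.16 and DESeq2 1.42.0 on recovered reads, leaving out each library and, added after the data were seen, the mean of the other 6 knockdowns in place of GFP and a pairing of the fractions by group and letter. R 4.3.3, Python 3.11.15, numpy 2.4.6, pandas 2.3.3 and matplotlib 3.10.9 were used.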

Additional observations from a re-analysis of the deposited data

How the results depend on the processing

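The counts of genes, against 162 higher and 158 lower, were 335 and 334 with DESeq2 on recovered reads, 62 and 65 without a filter on low values, 21 and 23 when the fit held only these 4 libraries, and 0 and 0 with no replicate block. Leaving out 1 library gave 1 to 416 higher and 0 to 883 lower genes. DESeq2 size factors, edgeR, a pseudocount of 5, and keeping the genes set aside or widening their limit to 2 times (71 genes set aside in place of 47) stayed within 1.5 times of both counts. For the relative cytoplasmic level, where none passed, 0 and 1 genes passed without a filter, and leaving out 1 library gave 0 to 21 higher and 0 to 262 lower genes. Pairing the fractions passed none. For exon usage, against 18 higher and 9 lower bins, 16 and 6 passed at a mean of at least 20, 25 and 9 with a pseudocount of 5, 27 and 6 with diffSpliceDGE, and 16 and 4 with no replicate block. Leaving out 1 library with no block gave 0 to 886 higher and 0 to 2046 lower bins. *Srsf2* kept its direction under all 13 alternatives and passed under none. No named gene or bin changed direction under any alternative in which it was tested. With 2 libraries a group, low genes such as *Car9* and *Plin4* rest on a few reads.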

Other observations

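Some values outside the naming rule were singled out after they had been seen. *Aldh8a1*, an aldehyde dehydrogenase of the liver and kidney, had the largest rise of all genes that passed in the cytoplasm, at 116 and 29.5 scaled reads in SRSF2 A and B, against 3.48 and 0.967 in GFP A and B (log2 fold change 4.34, SE 0.78, limma adjusted p = 0.0145). The whole cell held 127 and 42.6 scaled reads of it in the knockdown, against 1.12 and 2.86 in GFP. Its first exon held 0 recovered reads in each of the 4 cytoplasmic libraries, while all its bins held 100 and 28 reads in the knockdown, against 4 and 1 in GFP. Both *Aldh8a1* and *Cd79a* were higher in both fractions, with at most 1 read in the first exon of any cytoplasmic library. So few reads were not particular to them. At most 3 first-exon reads in each library were found in 18.1% of 12079 genes with at least 100 reads. The share was 10.4% among the higher genes that passed and 15.0% among the lower ones. *Aldh8a1* did not pass without SRSF2 A (adjusted p = 0.172).

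*Hspa8* (HSC70), the constitutive chaperone of the cytosol, was among the most abundant genes that passed, at 115151 and 85136 scaled reads in SRSF2 A and B, against 48853 and 45600 in GFP A and B (log2 fold change 1.07, SE 0.17, limma adjusted p = 0.00651). The whole cell showed a log2 fold change of 1.07 as well (adjusted p = 0.0110). The libraries of the other 6 knockdowns held 44837 to 110070 scaled reads (median 82452), so the SRSF2 libraries differed less from them (log2 difference 0.50, SE 0.13, limma adjusted p = 0.0358) than from GFP. It has pseudogenes of similar sequence that may share reads with it.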
